A study of Mus musculus with 4 samples.

Results

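The genes examined here are the ligands, receptors and nuclear factors of Wnt signalling, in colon tumours and normal colon of mice that were Dmt1F/F or Dmt1+/+. They were chosen by symbol: every Wnt, Fzd and Rspo gene with a number, and Lrp5, Lrp6, Sfrp1, Sfrp2, Sfrp4, Sfrp5, Apc, Ctnnb1, Tcf7, Tcf7l1, Tcf7l2 and Lef1. The array table gave 45 such genes of 22180. They were 19 Wnt ligands, 10 Frizzled receptors, 4 R-spondins, 4 secreted Frizzled-related proteins, 2 Lrp co-receptors, Apc and beta-catenin (Ctnnb1), 3 Tcf/Lef factors, and Fzd10os, an opposite-strand transcript that the symbol rule also takes in. Tcf7 had no probe set assigned to it alone and is not analysed here. Of the 45, 18 reached a log2 signal of 4.67 on at least 1 array, the median level of all genes, and 27 did not. Values below that level stand near background, where the size and direction of a difference are uncertain.

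In all, 4 groups were measured, with 1 Affymetrix whole-transcript array each: F/F tumour, wild-type (WT) tumour, F/F normal colon and WT normal colon. F/F stands for Dmt1F/F and WT for Dmt1+/+, where Dmt1 (symbol Slc11a2) encodes an iron importer. All mice were C57BL/6, 3 months old, carried ApcF/+ and bore the label CDX2, which the labels leave unexplained. The letter F usually denotes a floxed allele; which cells had lost Apc or Dmt1 is not stated in the labels. The design text counts 4 F/F and 7 WT animals, without saying how they map to the arrays or whether RNA was pooled.

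Wnt ligands are secreted lipid-modified proteins that bind Frizzled receptors and the co-receptors Lrp5 and Lrp6. Without a ligand, a complex built on Apc marks beta-catenin for destruction; with a ligand, or when Apc is lost, beta-catenin accumulates and acts with Tcf/Lef factors on target genes. R-spondins strengthen the signal by binding Lgr receptors and so protecting Frizzled receptors from the ligases Rnf43 and Znrf3. At the base of the colon crypt this pathway maintains the stem cells, with much of the Wnt and R-spondin made by the surrounding stroma.

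Values are log2 signals, so a difference of 1 is 2-fold, and signals of different genes are not comparable with each other. With 1 array per group, a difference between 2 arrays has no replicate check and no p-value. A single limma fit over the 4 arrays, with tissue and genotype as additive terms, gave the adjusted p-values (Benjamini-Hochberg over 12060 genes). It has 1 residual degree of freedom, and "rose" and "fell" are used of genes that passed at 0.05. The genotype label was borne out in direction by Slc11a2, which was at 6.19 in F/F tumour and 6.64 in WT tumour, and at 6.13 in F/F normal colon and 6.51 in WT normal colon (genotype difference -0.41, SE 0.12, limma adjusted p = 0.564). All 7 epithelial markers examined were above the level filter on the arrays, with mean log2 levels between 9.92 and 10.25. Of these, Krt20 fell by 0.999 and Vil1 by 0.65 in tumours, and the other 5 did not pass. Among all genes 8.23% fell and 11.0% rose. Markers of position along the gut separated the arrays: the mean level of 5 proximal genes was 5.91 in F/F tumour, 5.30 in WT tumour, 8.39 in F/F normal colon and 7.42 in WT normal colon. Of these 5, 4 fell in tumours and 1, Onecut2, rose by 3.08, against 8.23% and 11.0% of all genes. Osr2 passed the level filter only through the normal arrays and Onecut2 only through the tumour arrays, where each is high. The mean level of 6 distal Hox genes was 6.70 in F/F tumour and 6.72 in WT tumour. It was 4.51 in F/F normal colon and 5.72 in WT normal colon. Of these 6, 3 rose and none fell, against 11.0% and 8.23% of all genes. Hoxd12 passed the level filter only through the tumour arrays and did not pass the test. Where each piece was taken and tumour or genotype cannot be told apart.

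In tumours, the nuclear factor Lef1, the ligand Wnt5a and the receptor Fzd6 rose and the receptor Fzd5 fell, while the other 14 genes above the level filter did not pass. The rise of Lef1 was the largest, with a fitted log2 difference of 2.81. Over all 12060 genes 11.0% rose and 8.23% fell, 19.3% together, so 4 calls among 18 (22.2%) is near the background. Before adjustment, 7 of the 18 had a p under 0.05, against 38.8% of all genes. Of all calls 57.3% were rises, against 46.4% after cyclic loess and 47.5% after quantile normalization. The median fitted difference was 0.17 over the 18 genes and 0.07 over all 12060, and it was -0.01 over the 45 genes and -0.02 over all 22180 when no level filter was set. The passing of Lef1 and Wnt5a through the level filter came from the tumour arrays, since both normal arrays lay below it; the same holds for Wnt10a, and Rspo3 passed only through the normal arrays. In bulk tissue, fewer cells of a type and less RNA per cell cannot be told apart.

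**Figure D1:**
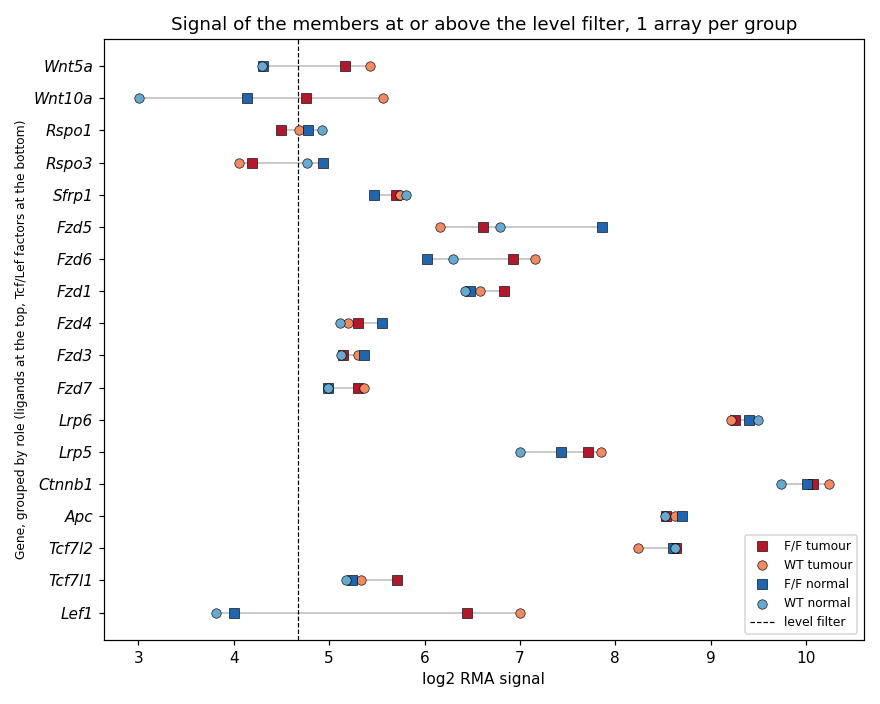
Log2 signal (x axis) of the 18 genes at or above the level filter, with 1 point for each of the 4 arrays, tumour in red and orange and normal colon in blue. Both tumour points of Lef1, Wnt5a and Fzd6 lie above both normal points, and both tumour points of Fzd5 lie below them.

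Among the ligands, Wnt5a and Wnt10a were above the level filter on at least 1 array, and the other 17 were below it on all 4. Wnt5a, a ligand best known for beta-catenin-independent signalling and made largely by mesenchyme, was at 5.16 in F/F tumour and 5.43 in WT tumour, against 4.30 in F/F normal colon and 4.30 in WT normal colon. Both tumour arrays were higher, by 0.86 in F/F and 1.13 in WT mice, and the normal arrays were nearly level. The fitted difference was 0.995 (SE 0.19, limma adjusted p = 0.0366). Of 9 fibroblast markers 7 rose and none fell, against 11.0% and 8.23% of all genes. Their mean level was 7.45 in F/F tumour, 7.62 in WT tumour, 6.55 in F/F normal colon and 7.01 in WT normal colon. Of the 9, 8 were lower in F/F than in WT normal colon (median -0.38). Both Wnt5a values in normal colon lay below the level filter, so its genotype difference there cannot be set against these markers. Lum was lower in both tumour arrays and did not pass (fitted -0.52). The part of fibroblasts in the difference of Wnt5a was not tested.

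Wnt10a, a ligand known from skin, hair and tooth development, was at 4.76 in F/F tumour and 5.57 in WT tumour, against 4.14 in F/F normal colon and 3.00 in WT normal colon. It was the most variable ligand: the tumour array exceeded the normal array by 2.57 in WT mice and by 0.62 in F/F mice. Because both normal arrays lay below the level filter, these differences may understate the change. The fitted difference of 1.60 carried an SE of 0.51 and did not pass (limma adjusted p = 0.0966). The order of the 4 arrays was also that of the squamous epithelial markers Krt14 and Dsg3, whose mean level was 4.69 in F/F tumour, 5.26 in WT tumour, 3.80 in F/F normal colon and 3.25 in WT normal colon. Like Wnt10a, Krt14 and Dsg3 passed the level filter only through tumour arrays, which favours tumour over normal colon. Lef1, Lrp5 and Ctnnb1 had the same order of arrays, so it was not particular to squamous markers. Of the other squamous markers, Trp63, Krt13 and Ivl were below the level filter, and the part of squamous cells was not tested.

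The 17 remaining ligands, Wnt2b, Wnt9b, Wnt4, Wnt11, Wnt6, Wnt5b, Wnt16, Wnt9a, Wnt7a, Wnt2, Wnt7b, Wnt8b, Wnt3a, Wnt10b, Wnt8a, Wnt1 and Wnt3, lay between 2.48 and 4.63. Wnt2b, a stromal ligand of the gut, had its highest value of 4.63 in F/F tumour, just under the filter. Wnt3, the ligand supplied by Paneth cells in the small intestine, stayed between 2.58 and 2.88 on the 4 arrays. Of 6 Paneth cell markers 4 rose in tumours and none fell, against 11.0% and 8.23% of all genes. Among them, Defa24 passed the level filter only through the tumour arrays. The signal of Wnt3 was too low to be set against these markers. Wnt16 stood out among these low signals, at 3.73 in F/F tumour and 3.80 in WT tumour, against 2.71 in F/F normal colon and 2.97 in WT normal colon. When all genes were fitted without the level filter, in which 9.36% of 22180 genes were called, Wnt16 was called higher in tumour at 0.92 (SE 0.16, limma adjusted p = 0.0316) and no other ligand below the filter was called. The other 16 differed by between -0.59 and 0.49 in WT mice and between -0.81 and 0.34 in F/F mice, where Wnt1 had the lowest value.

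Several Wnt genes lie next to each other in the genome. In the RefSeq order of protein-coding genes on assembly GRCm38.p6, the neighbours were Wnt6 and Wnt10a on chromosome 1, Wnt3a and Wnt9a and also Wnt9b and Wnt3 on chromosome 11, and Wnt10b and Wnt1 on chromosome 15. Wnt6, beside the variable Wnt10a, was below the level filter, at 3.94 in F/F tumour and 4.19 in WT tumour, against 3.59 in F/F normal colon and 3.70 in WT normal colon. Its tumour differences of 0.34 in F/F mice and 0.49 in WT mice had the direction of those of Wnt10a. In the other 3 pairs the differences fitted without the level filter lay between -0.26 and 0.18.

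No R-spondin passed the test. Rspo1 was at 4.49 in F/F tumour and 4.69 in WT tumour, against 4.77 in F/F normal colon and 4.92 in WT normal colon, a fitted difference of -0.26 (SE 0.19, limma adjusted p = 0.369). Rspo3, the R-spondin of stroma near the crypt base, ranged from 4.06 to 4.94, with tumour below normal colon by -0.75 in F/F and -0.71 in WT mice. Its fitted difference of -0.73 (SE 0.21) missed the threshold at a limma adjusted p of 0.0770. Rspo3 passed the level filter only through the normal arrays, where it is high. It passed the test under 2 of the alternatives, with arrays centred on their medians (adjusted p = 0.0478) and without a variance trend (adjusted p = 0.0438). Rspo2 and Rspo4 stayed below the level filter, between 3.05 and 3.96. Of 3 measurable crypt-base stromal markers, Grem1 and Cd81 rose, Cd34 did not pass and none fell, against 11.0% and 8.23% of all genes. The crypt-base stromal markers Pi16 and Ackr4 were below the level filter.

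The secreted Frizzled-related proteins bind Wnt ligands outside the cell and act mostly as antagonists. Sfrp1 was at 5.70 in F/F tumour and 5.75 in WT tumour, against 5.47 in F/F normal colon and 5.81 in WT normal colon. The tumour and normal values overlapped, and the fitted difference of 0.08 (SE 0.15, limma adjusted p = 0.713) changed sign under quantile normalization and cyclic loess. Sfrp2, Sfrp4 and Sfrp5 were below the level filter, between 2.47 and 4.14. A second probe set of Sfrp2 gave another picture: its tumour differences were 0.003 in F/F and 0.62 in WT mice, where the probe set used here gave 0.45 and 0.13.

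**Figure D2:**
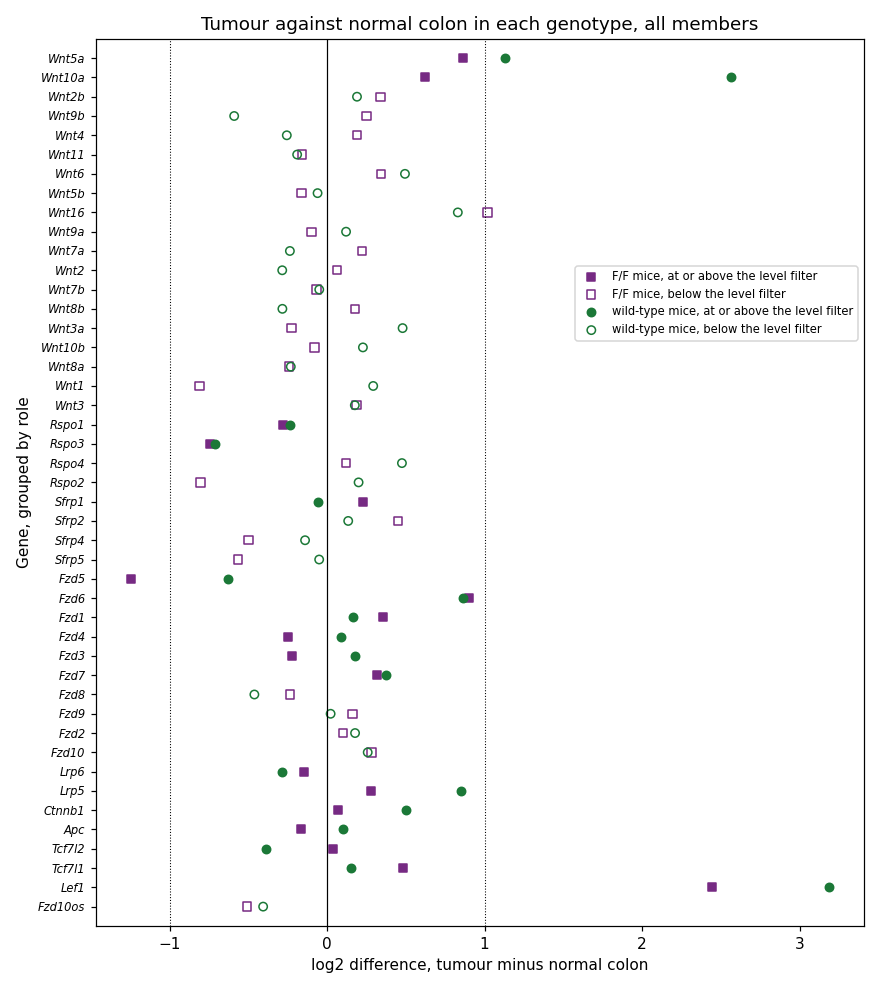
Log2 difference between tumour and normal colon (x axis) for all 45 genes, in F/F mice (squares) and WT mice (circles). Filled symbols mark genes at or above the level filter, open symbols those below it, and dotted lines a 2-fold difference in either direction. Lef1 stands at 2.44 and 3.18, and most ligands lie near 0 with open symbols.

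Among the receptors, Fzd6 rose and Fzd5 fell. Fzd6, a Frizzled tied to planar cell polarity, was at 6.93 in F/F tumour and 7.16 in WT tumour, against 6.02 in F/F normal colon and 6.29 in WT normal colon. Tumour exceeded normal colon by 0.90 in F/F and 0.86 in WT mice, so that the 2 genotypes were close, and the fitted difference was 0.88 (SE 0.12, limma adjusted p = 0.0208).

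Fzd5, the epithelial Frizzled needed in the mouse gut for Paneth cell maturation, was at 6.62 in F/F tumour and 6.16 in WT tumour, against 7.86 in F/F normal colon and 6.79 in WT normal colon. All 4 values differed, and the F/F normal array stood more than 1 log2 unit above the next. The fitted difference was -0.94 (SE 0.19, limma adjusted p = 0.0395), made of -1.25 in F/F and -0.63 in WT mice. The call ended without a variance trend (adjusted p = 0.0581) and without the genotype term (adjusted p = 0.140). The means of several marker groups followed the same order of arrays as Fzd5, among them the proximal position markers given above. The 7 epithelial markers averaged 10.09 in F/F tumour, 9.92 in WT tumour, 10.25 in F/F normal colon and 10.22 in WT normal colon. Of these, Cdh1, Krt18 and Epcam were higher in tumour (fitted 0.30, 0.35 and 0.07) and did not pass. The 5 T and NK cell markers averaged 4.96 in F/F tumour, 4.60 in WT tumour, 5.78 in F/F normal colon and 5.39 in WT normal colon. The 4 adipocyte markers, 3 of which fell against 8.23% of all genes, averaged 4.88 in F/F tumour, 4.51 in WT tumour, 6.83 in F/F normal colon and 5.73 in WT normal colon. The adipocyte markers Adipoq and Lep were below the level filter. All 8 smooth muscle markers were lower in tumour in both genotypes, 1 of them past the test, with mean levels of 7.89 in F/F tumour, 7.23 in WT tumour, 8.36 in F/F normal colon and 9.02 in WT normal colon. The smooth muscle mean was highest in WT normal colon, so it did not follow the order of arrays of Fzd5. The part of position, epithelium, T and NK cells, fat or muscle was not tested.

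The other Frizzled genes above the filter did not pass. Fzd1 was between 6.42 and 6.83 (fitted tumour difference 0.26, limma adjusted p = 0.215), Fzd7 between 4.99 and 5.36 (0.34, adjusted p = 0.191), Fzd4 between 5.11 and 5.55 (-0.08, adjusted p = 0.746) and Fzd3 between 5.12 and 5.36 (-0.02, adjusted p = 0.939). Both tumour arrays exceeded both normal arrays for Fzd1 and for Fzd7, a receptor of intestinal stem cells, as they did for Lrp5, Ctnnb1 and Tcf7l1. Fzd8, Fzd9, Fzd2 and Fzd10 were below the filter, between 2.11 and 4.62, and differed by -0.46 to 0.28 between tumour and normal colon. The opposite-strand transcript Fzd10os, also low, was between 3.09 and 3.65.

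The co-receptors did not pass either. Lrp6 was at 9.25 in F/F tumour and 9.21 in WT tumour, against 9.40 in F/F normal colon and 9.50 in WT normal colon, with a fitted difference of -0.22 (SE 0.11, limma adjusted p = 0.212). Both tumour arrays were slightly lower, and its second probe set gave -0.32 in F/F and -0.34 in WT mice. Lrp5 was highest in WT tumour, at 7.85, and lowest in WT normal colon, at 7.00, with tumour above normal colon by 0.28 in F/F and 0.85 in WT mice (fitted 0.56, SE 0.18, adjusted p = 0.0936).

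Apc and beta-catenin mRNA differed little. Apc was between 8.53 and 8.70 on the 4 arrays (fitted tumour difference -0.03, SE 0.12, limma adjusted p = 0.855). Which part of the gene its probe set covers is not given in the files used here, so the value does not measure the floxed allele. Ctnnb1 was at 10.08 in F/F tumour and 10.24 in WT tumour, against 10.01 in F/F normal colon and 9.74 in WT normal colon, with a fitted difference of 0.29 (SE 0.14, adjusted p = 0.218). These are mRNA levels, whereas the pathway controls beta-catenin mainly through protein stability.

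Lef1, a Tcf/Lef factor and itself a known Wnt target, had the largest tumour difference of the 45 genes. It was at 6.44 in F/F tumour and 7.00 in WT tumour, against 4.00 in F/F normal colon and 3.82 in WT normal colon. The normal values lay below the level filter and the tumour values well above it, with differences of 2.44 in F/F and 3.18 in WT mice. The fitted difference was 2.81 (SE 0.23, limma adjusted p = 0.00941). Lef1 is also a gene of T and immature B cells. Of 5 T and NK cell markers none rose and 2 fell, against 11.0% and 8.23% of all genes. The 2 that fell, Cd8a and Gzma, passed the level filter only through the normal arrays, where they are high. The mean levels of the 5 were 4.96 in F/F tumour, 4.60 in WT tumour, 5.78 in F/F normal colon and 5.39 in WT normal colon. The 5 B cell markers averaged 6.21 in F/F tumour, 4.36 in WT tumour, 4.17 in F/F normal colon and 4.69 in WT normal colon. None of the 5 B cell markers passed, and Cr2 and Pax5 were above the level filter only in F/F tumour. Of the T cell markers, Cd4 differed between tumour and normal colon by 1.24 in F/F mice and -0.05 in WT mice and did not pass (limma adjusted p = 0.287). Cd4 was above the level filter only in F/F tumour. The part of lymphocytes in the difference of Lef1 was not tested.

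The other Tcf/Lef factors did not pass. Tcf7l2, the main such factor of the gut epithelium, was at 8.64 in F/F tumour and 8.24 in WT tumour, against 8.60 in F/F normal colon and 8.63 in WT normal colon (fitted -0.18, SE 0.15, limma adjusted p = 0.428). The WT tumour array was lower and the remaining 3 were nearly level. Tcf7l1, which mostly represses targets, was between 5.18 and 5.71, highest in F/F tumour (fitted 0.32, SE 0.17, adjusted p = 0.237).

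Promoter sequence is shown for Lef1 and Fzd5, the called genes with an entry in the RefSeq promoter table of GRCm38.p6, to set the strongest riser beside the receptor that fell. Windows of 250 bases upstream of each start were searched on both strands for CTTTGA and CTTTGT, the core bound by Tcf/Lef factors, and matches are in capitals, read along the gene's strand. Lef1 has 4 listed starts. The first (chr3:131110047-131110296, plus strand) held no match, nor did the next 2, and the most downstream (chr3:131156044-131156293, plus strand) held 3, whose first bases lie 180, 146 and 120 bases upstream of the start. The Fzd5 window (chr1:64737751-64738000, minus strand) held none.
Lef1, first start: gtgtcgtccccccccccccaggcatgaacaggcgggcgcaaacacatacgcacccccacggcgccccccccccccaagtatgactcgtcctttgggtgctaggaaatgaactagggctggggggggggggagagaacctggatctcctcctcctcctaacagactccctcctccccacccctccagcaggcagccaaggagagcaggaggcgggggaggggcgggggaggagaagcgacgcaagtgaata
Lef1, most downstream start: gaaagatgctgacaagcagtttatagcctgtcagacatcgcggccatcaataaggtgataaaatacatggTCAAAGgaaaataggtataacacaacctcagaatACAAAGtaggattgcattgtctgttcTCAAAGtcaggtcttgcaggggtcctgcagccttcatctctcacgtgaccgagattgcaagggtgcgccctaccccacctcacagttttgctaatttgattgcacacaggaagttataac
Fzd5: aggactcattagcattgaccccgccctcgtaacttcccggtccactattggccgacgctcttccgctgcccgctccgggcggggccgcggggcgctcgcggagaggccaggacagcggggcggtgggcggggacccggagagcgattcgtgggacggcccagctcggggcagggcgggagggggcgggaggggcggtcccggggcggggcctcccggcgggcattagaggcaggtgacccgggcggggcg
The 3 Lef1 matches are all on the reverse strand. Of 32851 windows in the table, 27.6% held at least 1 match and 0.776% at least 3. Among the genes studied, 8 of 37 windows, from 29 genes, held a match. A match is a string of letters and not a measured binding site, and the arrays do not tell which Lef1 start was used.

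The surrounding pathway was examined through lists of other genes, counted over those above the level filter. Lgr6, Notum, Apcdd1, Ptk7, Dvl2 and Ascl2 passed that filter only through tumour arrays, and Gpc3, Dkk1 and Kremen2 only through normal arrays, so these counts include genes kept through the tissue where they are high. In the group of R-spondin receptors and ligases, 4 of 5 genes rose: Lgr5 by 3.32 (SE 0.13, limma adjusted p = 0.00349), Rnf43 by 2.19, Znrf3 by 2.06 and Lgr6 by 1.96. Lgr4 did not pass (-0.12, adjusted p = 0.429). Of the list of Wnt targets, which shares genes with these groups, 14 of 17 measurable genes rose and none fell, against 11.0% and 8.23% of all genes; the median fitted difference was 2.06.

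Some inhibitors rose as well. Of 11 measurable secreted and membrane inhibitors 5 rose and none fell: the Wnt-binding Wif1 by 4.81 (SE 0.15, limma adjusted p = 0.00349), the Wnt deacylase Notum by 3.92, Dkk2 by 3.77, Apcdd1 by 2.93 and Dkk3 by 1.05. Dkk1, an Lrp antagonist, was lower in both tumour arrays but did not pass (-1.04, SE 0.26, adjusted p = 0.0588). Inside the cell, Nkd1 rose by 3.80, the scaffold Axin2 by 2.45 and the kinase Csnk1e by 1.53, 3 of 14 genes of this group, and none fell. Over all genes 11.0% rose and 8.23% fell, and 3 calls among 14 is near the 19.3% called in either direction.

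Wnt secretion genes did not pass the test in any of 7 cases, with Wls, the carrier of Wnt proteins to the surface, at 0.23 (SE 0.12, limma adjusted p = 0.222) and the acyltransferase Porcn at 0.28 (SE 0.16, adjusted p = 0.260). None of 12 transducers and coactivators passed, with a median of 0.28. In the group of non-canonical receptors and polarity genes, to which Wnt5a and Fzd6 are functionally close, Ptk7 rose by 1.37, Celsr1 by 0.82, Vangl2 by 0.81 and Vangl1 by 0.79, the proteoglycan Gpc3 fell by 1.09, and the other 9 of 14 did not pass, where 11.0% of all genes rose and 8.23% fell. The median of this group was 0.32.

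**Figure D3:**
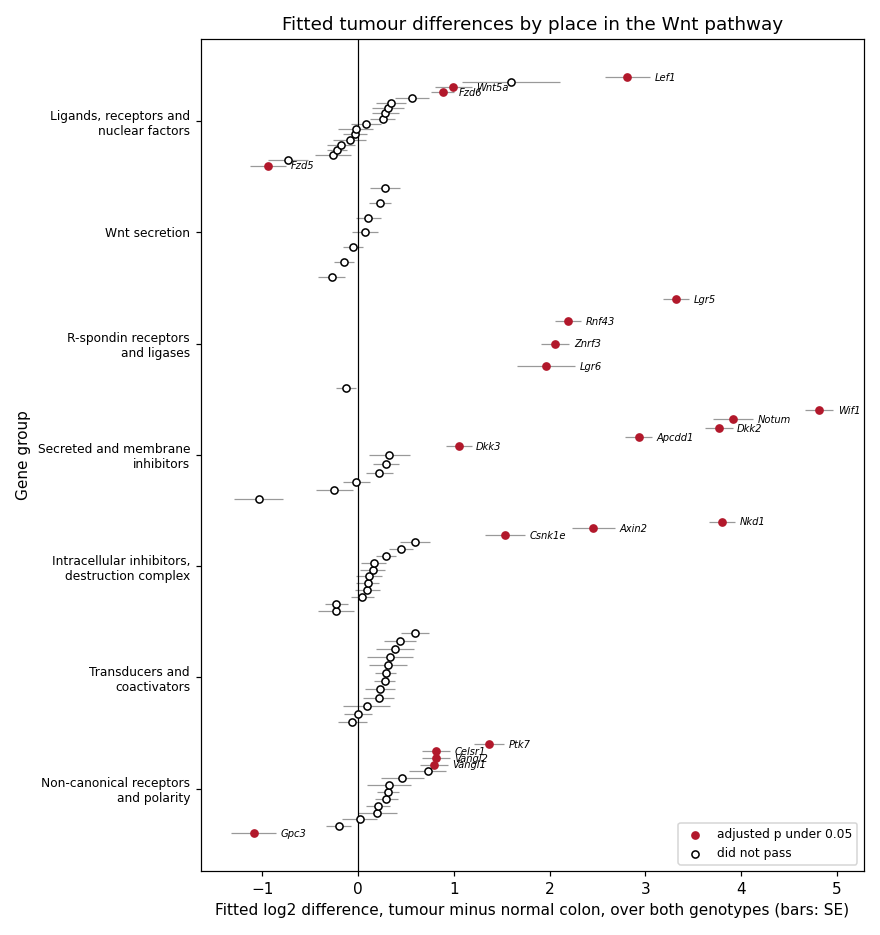
Fitted log2 difference between tumour and normal colon with its SE (x axis) for the genes at or above the level filter, by place in the pathway. Red points passed at an adjusted p of 0.05 and are named. The called R-spondin receptors and ligases lie between 1.96 and 3.32, and the 7 secretion genes and 12 transducers have no red point.

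The same genes were set out by Dmt1 genotype. None of the 18 passed for genotype over both tissues (limma adjusted p from 0.531 to 0.975), as none of all 12060 genes did (0% called). At an unadjusted p under 0.05, 1 of the 18 was counted, Fzd5, against 8.22% of all genes. Fzd5 was higher in F/F by 0.46 in tumour and 1.08 in normal colon (fitted 0.77, SE 0.19, adjusted p = 0.531).

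In tumour, none of the 18 genes differed by 2-fold or more between F/F and WT, where 1.70% of all genes were higher and 0.506% lower by that much. Wnt10a was lowest in F/F tumour relative to WT tumour, at -0.81, followed by Lef1 at -0.56. Fzd5 (0.46), Tcf7l2 (0.40) and Tcf7l1 (0.38) had the highest differences. In normal colon, Wnt10a (1.14) and Fzd5 (1.08) were higher in F/F by 2-fold or more and no gene was lower by that much, against 0.713% and 0.904% of all genes. The other 16 differed by at most 0.44 in size, with Fzd4 and Lrp5 at 0.44. Both values of Wnt10a in normal colon were below the level filter. The proximal markers were also higher in F/F normal colon, all 5 of them, with a median of 0.90. Among them, Onecut2 was below the level filter on both normal arrays.

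Tumour and normal colon were also compared within each genotype. In F/F mice Lef1 was higher and Fzd5 lower by 2-fold or more, 1 gene each of 18, where 5.98% of all genes were higher and 3.81% lower. In WT mice Lef1, Wnt10a and Wnt5a were higher and none was lower, where 6.56% were higher and 5.31% lower. Of the 18 genes 13 had the same direction in both genotypes, 9 higher and 4 lower in tumour. Apc, Fzd3, Fzd4, Sfrp1 and Tcf7l2 had opposite directions, with sizes between 0.04 and 0.39. The difference between the genotypes in these changes was not tested, because it is the term the fit uses as its residual. The median over the 18 genes was 0.15 in F/F mice and 0.16 in WT mice, and over all genes 0.04 and 0.08.

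**Figure D4:**
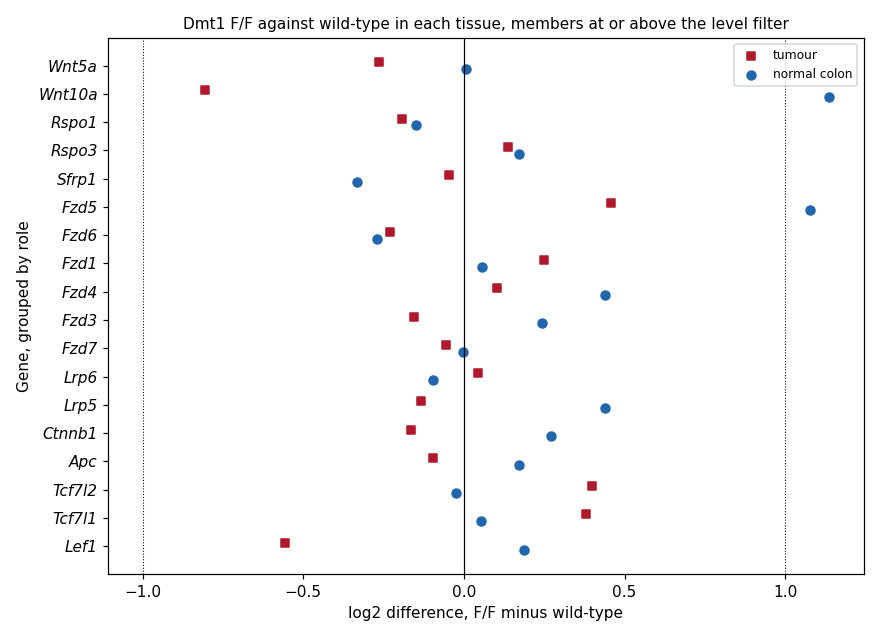
Log2 difference between Dmt1 F/F and WT (x axis) in tumour (red squares) and normal colon (blue circles) for the 18 genes at or above the level filter; dotted lines mark a 2-fold difference. Wnt10a stands at -0.81 in tumour and 1.14 in normal colon, and Fzd5 is above 0 in both.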

How the data were processed

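RNA from mouse colon was measured on 4 arrays, 1 per group. The authors deposited log2 signals for each probe set; the submitters' processing notes name RMA and oligo, without versions. RMA forces arrays to a common intensity distribution, which removes differences in total signal. Of 41345 probe sets, 23521 had 1 gene in the platform annotation, and 23328 of these matched RefSeq (GRCm38.p6), which gave the symbols. A gene with several probe sets was represented by that of highest mean. The 12060 genes whose highest value reached the median of gene means (log2 4.67) were kept.

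Differences were fitted with limma 3.58.1 in R 4.3.3 (additive tissue and genotype terms, eBayes with a trend, prior of 3.4 degrees of freedom). Both tissues of a genotype may share animals, so p-values measure departure from additivity and not the spread between animals. The fit was tested on simulated data. Arrays per group limit the precision.

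Full values are given for genes that were called, that differed 2-fold in any pair of arrays above the filter, or that were highest in their family. Of other lists, at most the 4 largest calls and Lgr5, Axin2, Wif1 and Notum were to be named; Dkk3, Dkk1, Wls, Porcn, Lgr4, Wnt16 and the markers Krt14, Dsg3, Grem1, Cd81, Cd34, Krt20, Vil1, Onecut2 and Cd4 were named after their values were seen. The markers Cd8a, Gzma, Cr2, Pax5, Cdh1, Krt18, Epcam, Lum, Defa24, Osr2 and Hoxd12 were also named after their values were seen. Members and lists were chosen with earlier results of these data known. Alternatives covered normalization, the level filter, the summary of probe sets, the variance trend and the model terms.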

Additional observations from a re-analysis of the deposited data

Results flagged for a closer look

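Wnt10a differed between genotypes in opposite directions in the 2 tissues: F/F minus wild-type was -0.81 in tumour and 1.14 in normal colon, a gap of -1.94 on the log2 scale. It was the only gene of the 18 above the level filter with opposite signs and a gap of log2 1 or more. The gap was not tested, since each value rests on 1 array per group. On both normal arrays Wnt10a lay below the level filter.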

How the results depend on the processing

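The 9 alternatives gave 142 tumour differences for the 18 genes, of which 135 kept their direction and their side of the threshold. Lef1, Wnt5a and Fzd6 passed under all 8 that fit a tissue term, at 2.71 to 2.81, 0.90 to 0.995 and 0.78 to 0.88. Fzd5 (-0.94) no longer passed without a variance trend, where Rspo3 (-0.73) was the 1 gene that fell, nor without the genotype term, where 0 genes fell. With arrays centred on their medians 2 genes fell, since Rspo3 (-0.78) joined Fzd5, and Wnt10a passed (1.54). Sfrp1 turned to -0.0695 after quantile normalization and -0.0254 after cyclic loess. Without the level filter 2 genes, not 1, were higher by 2-fold or more in F/F tumour than in F/F normal colon, as Wnt16 was then counted. With the filter on the mean over the arrays 1 gene, not 2, was higher by 2-fold or more in F/F than in WT normal colon, as Wnt10a then had too low a mean. The additive fit already compares the tissues within each genotype; the labels give no replicate numbers, so no further pairing was possible. With 1 array per group, no array could be left out in turn.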
